A study of Mus musculus with 6 samples.

Results

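The set described here holds 41 genes that encode secreted chemokines, cytokines and growth factors of immune cells, 2 enzymes that make inflammatory mediators, and 2 serum amyloid A proteins. They were chosen by name, and the name given to each spot in the scanner files found 52 probes for them, of 41174 on the array. All 41 were on the array, of 28104 genes. RNA given as that of esophageal epithelium from adult C57BL/6J mice was measured on 6 two-colour Agilent arrays. 3 arrays carried wild type RNA, and 3 were labelled as Pax9 knockouts, K5Cre;Pax9 loxp/loxp. In that cross a keratin 5 promoter drives Cre recombinase, so a floxed allele is deleted in the basal cells of stratified epithelia and their descendants, and not in immune cells, fibroblasts or muscle. Whether the wild type mice carried the Cre or a floxed allele, and which exons are floxed, could not be read from the labels. Each array carried esophageal RNA in Cy5 and in Cy3 Agilent's Universal Mouse Reference RNA, a pool made from 11 lines of mouse cells, and no dyes were swapped. The source is labelled as epithelium, while the protocol describes extraction from esophageal tissue.

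Chemokines are small secreted proteins that attract leukocytes through receptors on the cell surface; the CC and CXC families are told apart by the spacing of their first cysteines. Cytokines such as Tnf and the interleukins act on nearby cells through receptors that signal by NF-kB, by JAK kinases and STAT proteins, or by AP-1, of which Fos is a component. In stratified epithelia, keratinocytes make several of these proteins themselves, while resident macrophages, Langerhans cells, T cells and fibroblasts make others. Pax9 is a paired-box transcription factor of the foregut epithelium.

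For 4 of the 8 members with 2 tested probes, the first 30 bases of each 60-base probe are shown as deposited. They are shown since the 2 probes of a gene read different stretches of its transcripts. Positions of the whole probes are those of the scanner files, on mouse build mm9, and the probe named first is the brighter of each pair in the mean log signal over both channels, reference included. For Ptgs2 both probes were designed to NM_011198, at chr1:151954744-151954803 and chr1:151954416-151954475 on the plus strand. For Cxcl12 the first was designed to transcript variant 3 (NM_001012477, chr6:117131227-117131286, plus strand). The second Cxcl12 probe was designed to transcript variant 1 (NM_021704, chr6:117124474-117124533, plus strand). For Saa1 both were designed to NM_009117 on the minus strand, at chr7:53996070-53996129 and, across a splice junction, between chr7:53996167 and chr7:53996639. For Il15 the first was designed to NM_008357 (chr8:84858403-84858462) and the second to an mRNA annotated as a shorter isoform (AB022307, chr8:84867236-84867295), both on the minus strand.
Ptgs2, brighter probe: tttttgaaaagtttgaagttagaacttagg
Ptgs2, other probe: ctgaagaattgctttcttacttaaaaacaa
Cxcl12, variant 3: aggagaaggcagcttcctatatgcagcgtg
Cxcl12, variant 1: gaattaatcataaacggaagtttaaatgag
Saa1, brighter probe: gcagtggcaaagaccccaattactacagac
Saa1, other probe: gctgagaaaatcagtgatggaagagaggcc
Il15, brighter probe: tgcaggttattttacatgagtacagtaaca
Il15, shorter isoform: gttccgttgcttatctactcagtgagacaa

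The promoters of 4 genes are shown because these genes changed or, for Saa1, had a near-identical relative that did: Ptgs2, Cxcl12 and Saa1 of the set, and Fos of the signalling genes. Each is 250 bases before the transcription start and 30 from it on, 5′ to 3′ in the direction of transcription, from RefSeq on build GRCm38.p6. They lie at chr1:150099781-150100060 (plus), chr12:85473640-85473919 (plus), chr6:117168285-117168564 (plus) and chr7:46742951-46743230 (minus) for Ptgs2, Fos, Cxcl12 and Saa1. Capitals mark matches to TGACGT (the core of the cyclic AMP response element), CACGTG (an E-box), TTGCGCAA (a C/EBP palindrome), GG, any 3 bases, then TTTCC (an NF-kB motif), GGGCGG (a GC box) and TATAAA. All were searched on both strands, except TATAAA, which was searched on the transcribed direction alone.
Ptgs2: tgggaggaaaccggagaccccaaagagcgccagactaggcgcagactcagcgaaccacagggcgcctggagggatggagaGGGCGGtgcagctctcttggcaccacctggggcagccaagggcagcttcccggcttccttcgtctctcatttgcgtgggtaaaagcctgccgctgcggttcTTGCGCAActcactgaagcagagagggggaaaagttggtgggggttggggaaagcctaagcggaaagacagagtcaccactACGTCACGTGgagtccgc
Fos: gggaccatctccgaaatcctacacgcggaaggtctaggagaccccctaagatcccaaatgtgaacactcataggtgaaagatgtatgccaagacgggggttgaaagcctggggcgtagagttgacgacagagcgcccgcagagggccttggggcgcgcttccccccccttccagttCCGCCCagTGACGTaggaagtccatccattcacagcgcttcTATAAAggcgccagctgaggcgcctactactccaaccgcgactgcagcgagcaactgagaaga
Cxcl12: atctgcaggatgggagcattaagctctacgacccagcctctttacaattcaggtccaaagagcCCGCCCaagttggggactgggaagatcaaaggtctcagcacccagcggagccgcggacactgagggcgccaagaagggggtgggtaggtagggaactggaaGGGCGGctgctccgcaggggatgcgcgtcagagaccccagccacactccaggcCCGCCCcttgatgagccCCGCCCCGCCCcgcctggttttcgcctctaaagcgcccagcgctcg
Saa1: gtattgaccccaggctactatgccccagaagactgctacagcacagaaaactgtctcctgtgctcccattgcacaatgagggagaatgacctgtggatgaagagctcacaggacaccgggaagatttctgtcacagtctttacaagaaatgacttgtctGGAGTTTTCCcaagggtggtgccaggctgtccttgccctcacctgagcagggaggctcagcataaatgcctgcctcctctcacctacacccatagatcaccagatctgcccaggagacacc

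In the Ptgs2 window, the C/EBP palindrome lay 69 to 62 bases before the start, and the cyclic AMP response element core, which overlaps the E-box, began at base 13 after it. In the Fos window that core lay 66 to 61 bases before the start. In the Saa1 window the NF-kB match lay 91 to 82 bases before the start, and the Cxcl12 window held 5 GC box matches. Of 32851 mouse promoters of the same length, 7.26% held TGACGT, 6.79% CACGTG, 0.18% TTGCGCAA, 5.16% the NF-kB motif, 34.7% GGGCGG and 8.02% TATAAA. RefSeq promoters were given for 25 of the 41 members. Of these, 3 held TGACGT (Ptgs2, Cxcl1 and Il6) and 7 held the NF-kB motif (Ccl20, Ccl9, Csf1, Cxcl1, Cxcl2, Il6 and Saa1). These letters are a description of the window and do not show that a factor binds there.

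The targeted gene did not check the labels. Pax9, read by 1 probe at chr12:57811169-57811228, had log2 ratios of sample over reference of 6.28, 6.13 and 5.70 on the wild type arrays and 6.81, 6.78 and 6.72 on those labelled knockout. The difference, labelled knockout minus wild type, was 0.73 (SE 0.18, n = 3 in each group, limma, adjusted p = 0.071). The groups did not overlap, as for 17.1% of all tested genes with labelled knockout higher. Over 18 alternative settings the difference kept its sign in 18 and passed in 2. A probe outside the deleted exons would not show the deletion, and where this probe lies relative to them is not known here. The groups are therefore called wild type and labelled knockout throughout.

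The arrays differed in ways that touch every value below. The median background-subtracted Cy5 signal was 56.0, 72.7 and 159 on the wild type arrays and 97.5, 133 and 124 on the labelled knockout arrays, and no spot was saturated. The 3 arrays of a group shared 1 slide and 1 scan, so slide and group cannot be told apart. All arrays carried the same reference, and its Cy3 signals were compared before any normalization. They were lower on all 3 labelled knockout arrays than on any wild type array for 43.1% of tested genes, and higher for 18.6%. The median Cy3 signal was 269, 261 and 261 in wild type and 202, 247 and 231 in labelled knockout. These shares therefore include a shift of the whole channel, and how much remains in the normalized ratios was not tested. Replicates are labelled as biological, with no word on the mice behind them. A p-value here sets a difference only against the spread among arrays of a group. With 1 slide for each group, that spread holds no variation between slides. All 8 epithelial markers listed (Krt5, Krt14, Krt4, Krt13, Trp63, Cdh1, Dsg3 and Sprr3) were well above background on all 6 arrays, and none of them passed the test. Skeletal muscle markers were also present: their summed normalized Cy5 signal ranged from 37514 to 374987 in wild type and from 118298 to 856570 in labelled knockout, with replicate 2 highest in each group. The 6 markers had a median difference of 1.22, and 1 of them, Myh2, rose by 1.63 (limma, adjusted p = 0.040), beside 2.83% of all tested genes called higher.

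Of the 41 members, 1 rose and 1 fell. Ptgs2, the inducible cyclooxygenase that starts prostaglandin synthesis, was 2.85-fold lower in labelled knockout, and the chemokine Cxcl12 was 1.67-fold higher. In tissue RNA, fewer cells of a type and less RNA per cell cannot be told apart. Another 26 members were tested and did not pass an adjusted p of 0.05, and 13 were too dim to test. To be tested, a probe needed Cy5 signal well above background on each of the 3 arrays of either group, and p-values were adjusted over all 30501 tested probes. Over all 20818 tested genes, 2.83% were called higher and 2.00% lower, or 4.84% in either direction, beside 2 of 28 tested members. With the replicate number as a block, 1 member rose and 6 fell (Ptgs2, Saa1, Ccl5, Ccl8, Ccl11 and Il15), beside 4.97% of all tested genes called higher and 3.23% lower in that fit, or 8.20% in either direction. At an unadjusted p under 0.05 there were 8 of 28 members, against 24.7% of all genes.

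Of the 28 tested members, 10 had a positive difference and 18 a negative one, with a median of -0.21 on the log2 scale, while over all tested genes 10725 were positive and 10093 negative and the median was 0.01. The groups did not overlap for 7 members. 2 of these were higher in labelled knockout (Cxcl12 and Cxcl15), against 17.1% of all genes, and 5 were lower (Ptgs2, Saa1, Ccl5, Il15 and Il10), against 15.1%. Cxcl15 was tested only through its signal on the labelled knockout arrays. By family, the median difference was -0.33 for the 5 tested interleukins and Tslp, -0.17 for Tnf and Csf1, -0.10 for the 12 CC chemokines, 0.12 for the 6 tested CXC chemokines, and -1.51 for Ptgs2, Saa1 and Saa3.

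**Figure D1:**
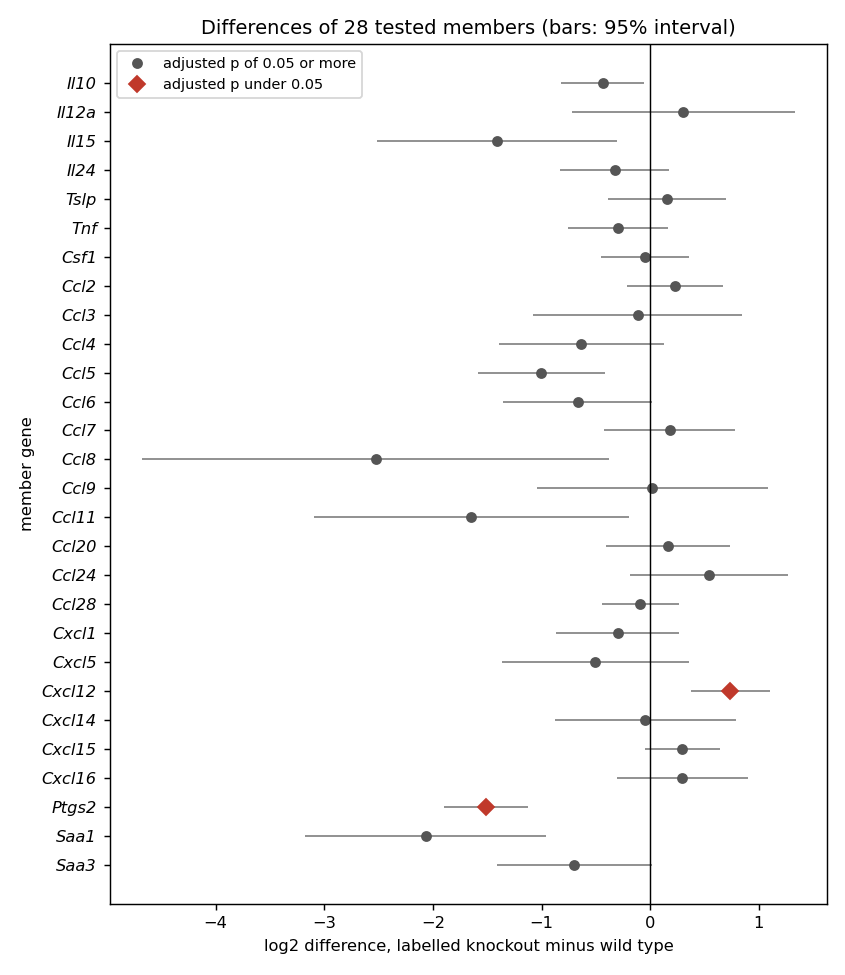
Difference between group means (labelled knockout minus wild type, log2 of sample over reference) for the 28 tested members, with bars for the 95% interval of the limma fit. Only Ptgs2 at -1.51 and Cxcl12 at 0.74 passed an adjusted p of 0.05, and the interval of Ccl8 was the widest, from -4.68 to -0.38.

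Ptgs2 encodes cyclooxygenase 2, and its mRNA is induced quickly by cytokines and growth factors. The probe brighter over both channels, whose ratio is a mean over 10 spots on each array, gave log2 ratios of -3.33, -2.85 and -3.06 in wild type. The same probe gave -4.62, -4.59 and -4.58 in labelled knockout. The groups did not overlap, and the labelled knockout arrays had a mean of -4.59 with an SD of 0.02. The spots of this probe varied within an array by an SD of 0.10 to 0.19. The difference was -1.51 (SE 0.16, 95% interval -1.90 to -1.13, limma, adjusted p = 0.010).

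The background-subtracted Cy5 signal of that Ptgs2 probe was 94.9, 189 and 474 in wild type and 24.1, 64.9 and 65.6 in labelled knockout. Its Cy3 signal was 7994, 7843 and 7512 in wild type and 5045, 6657 and 6482 in labelled knockout. So the reference signal moved in the same direction as the sample signal, by less, and its part in the result was not tested. The other Ptgs2 probe read -3.35, -3.02 and -2.74 in wild type and -3.77, -3.92 and -3.84 in labelled knockout. In Cy5 alone this second probe was the brighter on 4 of 6 arrays. It too separated the groups, but its difference of -0.81 (SE 0.19) did not pass (adjusted p = 0.059). The call on the brighter probe was lost with median centring in place of loess (-1.26, adjusted p = 0.11), which moved the median of all tested genes to 0.11, and without labelled knockout replicate 3 (adjusted p = 0.065).

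Serum amyloids are acute phase proteins, made in the liver and also in epithelia under inflammatory stimulus. Saa1 had log2 ratios of 0.38, -1.09 and -1.54 in wild type and -2.52, -3.10 and -2.83 in labelled knockout. Every labelled knockout array lay below every wild type array, and wild type replicate 1 was the highest. The difference of -2.07 (SE 0.47) did not pass (limma, adjusted p = 0.058), and it passed with the replicate number as a block (adjusted p = 0.016). The other Saa1 probe read 3.71, 1.04 and 0.39 in wild type and was not well above background on any labelled knockout array. On the ratio scale its group means differed 3.35-fold (adjusted p = 0.23), with the labelled knockout mean resting on background. In the normalized Cy5 channel alone, which is open to dye bias, the wild type mean was at least 4.62-fold brighter. Wild type log2 values there were 10.5, 7.90 and 7.36, so replicate 1 weighed most in the bound, and labelled knockout values were 6.34 to 6.43. The probe was tested only through the wild type arrays, where it is high. That bound sets the mean of the 3 wild type arrays against the probe's own dim signal or the lowest signal well above background on each labelled knockout array, whichever is higher. Saa1 has a near-identical paralog, Saa2, so the 2 genes may share signal.

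Saa3, the serum amyloid that macrophages and epithelia make outside the liver, ranged from -4.00 to -2.78 in wild type and from -4.22 to -3.89 in labelled knockout. Its difference of -0.70 (SE 0.30) did not pass (limma, adjusted p = 0.22), and the groups overlapped. Nos2, the inducible nitric oxide synthase, was well above background on 0 wild type and 2 labelled knockout arrays, with Cy5 signals of 3.36 to 17.1, and was not tested.

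Cxcl12 is a chemokine of stromal cells that binds the receptor Cxcr4. The brighter probe, designed to transcript variant 3, gave log2 ratios of -4.15, -4.00 and -4.10 in wild type and -3.51, -3.13 and -3.39 in labelled knockout. The groups did not overlap, and the difference was 0.74 (SE 0.16, 95% interval 0.37 to 1.10, limma, adjusted p = 0.048). Cy5 was 582, 654 and 1732 in wild type and 1159, 3052 and 2633 in labelled knockout. Cy3 was 49472, 46103 and 45586 in wild type and 28430, 42222 and 43214 in labelled knockout, so a lower reference signal moved with the higher ratio; with Cy5 alone the difference was 0.64 (adjusted p = 0.070).

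The Cxcl12 probe for transcript variant 1 read -4.06, -4.45 and -4.11 in wild type and -3.56, -4.35 and -3.75 in labelled knockout. There the groups overlapped, and the difference was 0.32 (SE 0.24, adjusted p = 0.46). The Cxcl12 call was lost without any single array of the 6, with adjusted p up to 0.18, while the difference stayed between 0.63 and 0.82. The summed signal of 7 fibroblast markers, the cell type best known for Cxcl12, was 299610, 165748 and 451487 in wild type and 492965, 204858 and 542351 in labelled knockout. No fibroblast marker passed the test, and the part of these cells in the result was not tested.

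**Figure D2:**
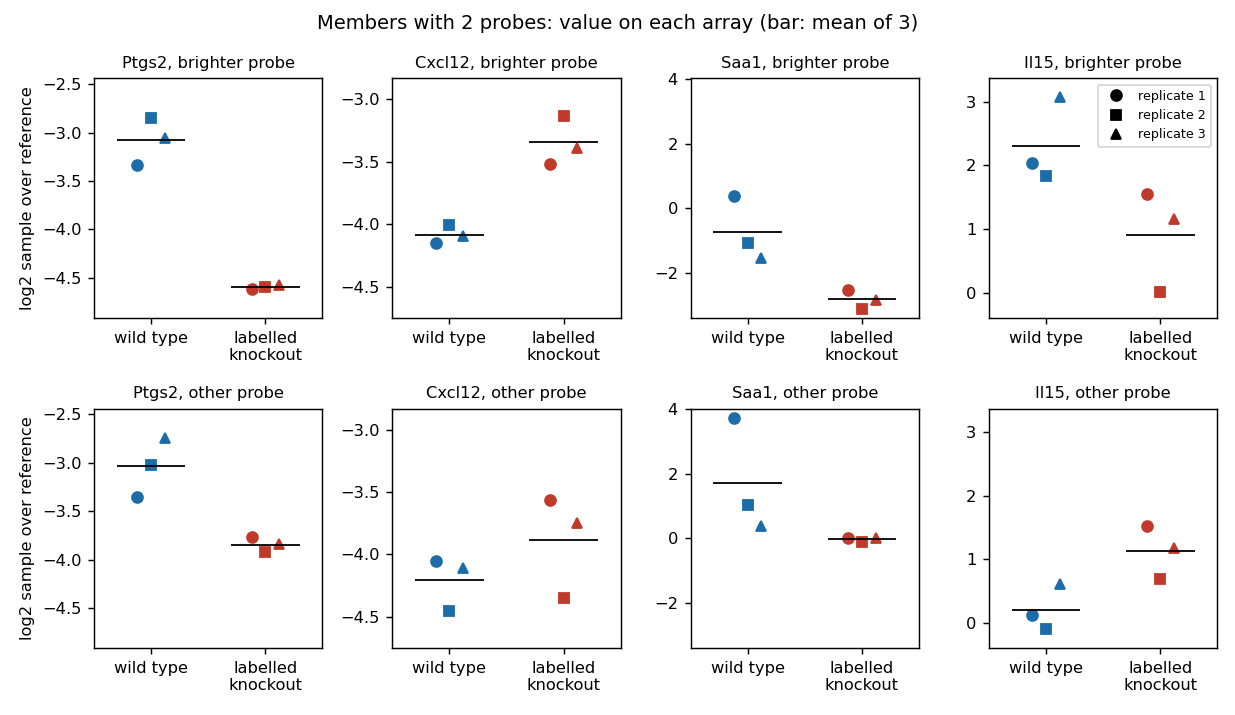
Log2 ratio of sample over reference on each array for the 2 probes of Ptgs2, Cxcl12, Saa1 and Il15, with a bar at the mean of each group and marker shapes for the replicate number. Both Ptgs2 and both Saa1 probes were lower on all labelled knockout arrays, while the Il15 probes moved in opposite directions.

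The other CXC chemokines showed small differences. Cxcl16, a transmembrane chemokine that binds Cxcr6, ranged from 0.36 to 1.06 in wild type and from 0.64 to 1.31 in labelled knockout, a difference of 0.29 (SE 0.26, limma, adjusted p = 0.53), and its other probe gave -0.12. Cxcl14, which keratinocytes make in the resting epithelium, differed by -0.04 (SE 0.35), with a 95% interval from -0.88 to 0.79. Its labelled knockout values spanned -0.99 to 0.44, wider than wild type at -0.48 to 0.04. The neutrophil attractants Cxcl1 and Cxcl5 differed by -0.30 (SE 0.24) and -0.50 (SE 0.36), and their groups overlapped. For both, the sample was far dimmer than the reference: Cxcl1 had Cy5 signals of 33.1 to 106 against Cy3 signals of 11479 to 13947. Cxcl15, best known from lung epithelium, was well above background on 0 wild type and 3 labelled knockout arrays, at Cy5 signals of at most 24.5. It was at least 1.21-fold brighter there, by the same bound as for Saa1, and did not pass (limma, adjusted p = 0.28). The gene was tested only through the labelled knockout arrays, so the bound and the separation of the groups are no support for a rise. Its other probe was above background on no array, with mean log2 ratios of 0.01 in wild type and -0.02 in labelled knockout.

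None of the 12 CC chemokines passed the test, although the largest difference of any member was among them. Ccl8, a monocyte attractant made by macrophages, had log2 ratios of 4.26, 0.40 and 2.10 in wild type and 0.62, -0.54 and -0.89 in labelled knockout. Labelled knockout replicate 1 lay above wild type replicate 2, so the groups overlapped. The difference was -2.53 (SE 0.91, limma, adjusted p = 0.16). Ccl11, or eotaxin, which attracts eosinophils through Ccr3, read 6.35, 3.83 and 5.29 in wild type and 4.16, 3.28 and 3.09 in labelled knockout, a difference of -1.65 (SE 0.62, adjusted p = 0.17). Within wild type both were lowest in replicate 2, the wild type array with the most skeletal muscle signal. Within labelled knockout, replicate 2 again had the most skeletal muscle signal, but both chemokines were lowest in replicate 3, at -0.89 and 3.09. The part of muscle in these values was not tested. With the replicate number as a block, both passed (adjusted p = 0.031 for Ccl8 and 0.039 for Ccl11).

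Ccl5, a chemokine of T cells and NK cells, read -2.51, -2.56 and -3.37 in wild type and -3.82, -3.72 and -3.91 in labelled knockout. The groups did not overlap, wild type was 2.00-fold higher (SE 0.25 on the log2 scale, limma, adjusted p = 0.068), and with the block it passed (adjusted p = 0.036). Its other probe, also above background on all arrays, gave -0.34 (SE 0.19, adjusted p = 0.32) with overlapping groups. The Cy3 signal of the brighter Ccl5 probe was 24430 to 25637 in wild type and 13340 to 20373 in labelled knockout.

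Ccl6, a mouse chemokine of myeloid cells, was far brighter in the esophagus than in the reference on every array, at 6.95, 6.87 and 6.46 in wild type and 6.62, 5.54 and 6.13 in labelled knockout. Its difference of -0.67 (SE 0.29) did not pass (limma, adjusted p = 0.22). Ccl9, from the same gene cluster, was almost level at 0.02 (SE 0.45, 95% interval -1.05 to 1.08), and was lowest in replicate 2 of each group, at -1.40 and -1.35. Ccl2, the main monocyte chemoattractant, ranged from -3.83 to -3.28 in wild type and from -3.47 to -3.14 in labelled knockout, a difference of 0.23 (SE 0.19). Its neighbour Ccl7 gave 0.18 (SE 0.26) on the brighter probe and -0.76 (SE 0.22, adjusted p = 0.10) on the other, so its direction was not settled. Ccl24, another eosinophil attractant, had differences of 0.54 (SE 0.31) and 0.78 (SE 0.26, adjusted p = 0.13) on its 2 probes, opposite in sign to Ccl11.

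The remaining CC chemokines had small differences or dim signals. Ccl4, a chemokine of activated macrophages, differed by -0.64 (SE 0.32) and was well above background on 3 wild type arrays and 1 labelled knockout array, with Cy5 signals of at most 45.9. Ccl3, also made by activated macrophages, differed by -0.11 (SE 0.41). Ccl20, the epithelial ligand of Ccr6, differed by 0.16 (SE 0.24) and was highest in labelled knockout replicate 2, at 0.86. Ccl28, a chemokine of mucosal epithelia, differed by -0.09 (SE 0.15) at Cy5 signals of at most 33.8.

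Marker lists were read for cell types that make these chemokines or are attracted by them. Among 7 Langerhans and dendritic cell markers, 2 fell, against 2.00% of all tested genes. They were Cd207 (langerin), by 3.35 on the log2 scale (limma, adjusted p = 0.010), and Itgax, by 1.63 (adjusted p = 0.013). The list's summed Cy5 signal was 53465 to 79228 in wild type and 17859 to 42522 in labelled knockout, without overlap; 1 of its genes, Epcam, is also epithelial. Of 8 T and NK cell markers 2 fell, against the same share, Cd3d by 1.00 (adjusted p = 0.018) and Cd3g by 0.94 (adjusted p = 0.036). Cd3e, of the same receptor complex, differed by 0.54 (SE 0.18, adjusted p = 0.14) in the other direction, as did Cd4 by 0.20 and Cd8a by 0.24. The summed signal of the list overlapped, at 10743 to 12689 against 7330 to 14549. All 10 macrophage and monocyte markers were above background on all arrays, none passed, and their summed signal was 36602 to 132088 in wild type and 37374 to 77796 in labelled knockout. In each group it was lowest in replicate 2. Of the remaining immune cell lists, 4 neutrophil, 4 B cell, 5 mast cell and 2 eosinophil markers were tested, and none passed. The part of any of these cell types in the chemokine values was not tested.

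**Figure D3:**
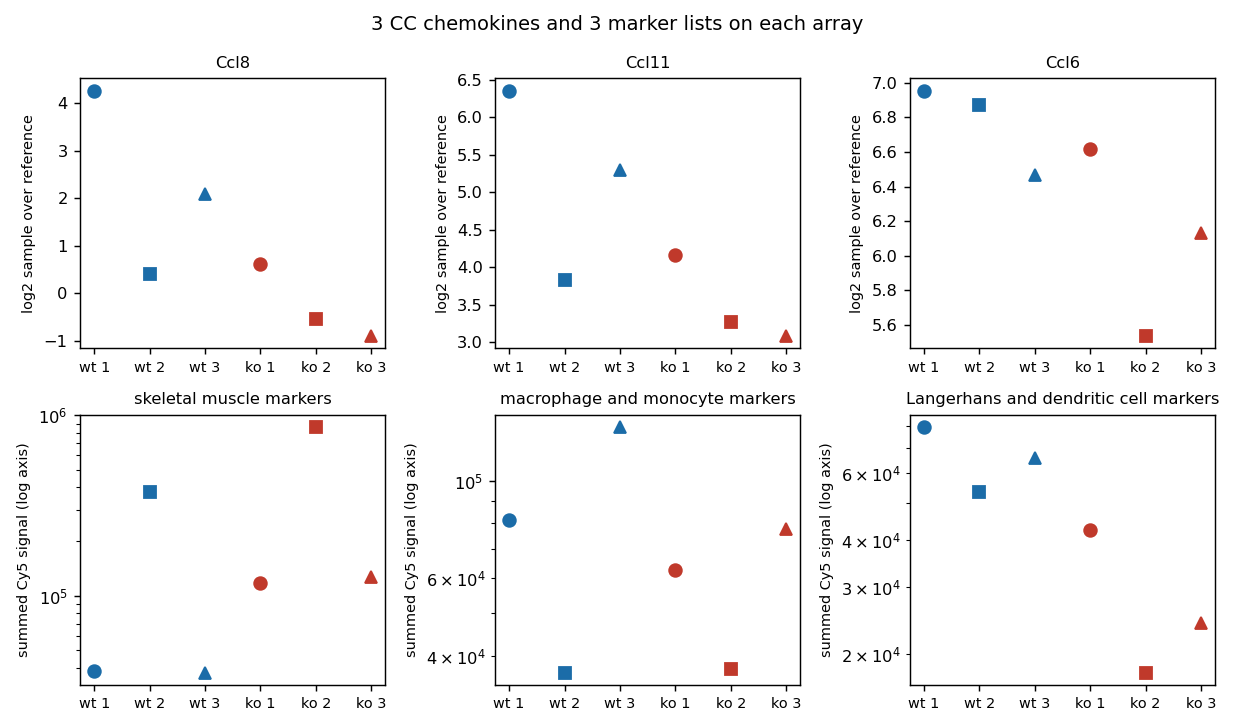
Upper panels, log2 ratio of sample over reference on each array for the CC chemokines Ccl8, Ccl11 and Ccl6; lower panels, the summed Cy5 signal of the marker lists for skeletal muscle, macrophages and monocytes, and Langerhans and dendritic cells, on log axes. The skeletal muscle sum is highest in replicate 2 of each group, at 374987 and 856570, and the macrophage sum is lowest there, at 36602 and 37374.

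No interleukin passed the test. Il15 supports NK cells and memory T cells, and is made by epithelial and myeloid cells. Its brighter probe read 2.04, 1.83 and 3.07 in wild type and 1.55, 0.00 and 1.16 in labelled knockout, with no overlap and a difference of -1.41 (SE 0.47, limma, adjusted p = 0.13; with the replicate number as a block, adjusted p = 0.041). The probe designed to the shorter isoform read 0.12, -0.10 and 0.61 in wild type and 1.53, 0.68 and 1.18 in labelled knockout, again with no overlap but the other way round. Its difference was 0.92 (SE 0.27, adjusted p = 0.10). The Cy3 signal of the second probe was 259, 245 and 257 in wild type and 534, 449 and 502 in labelled knockout, and that of the brighter probe was 357, 340 and 348 against 154, 349 and 165. So the reference of the second probe was higher on every labelled knockout array. That of the brighter probe was lower on labelled knockout replicates 1 and 3. On replicate 2, where the ratio was lowest, it lay within the wild type range. The part of the reference was not tested. The 2 Il15 probes disagreed in direction, and no direction is given for the gene.

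Il10, an anti-inflammatory cytokine, read -1.08, -1.25 and -1.54 in wild type and -1.72, -1.71 and -1.75 in labelled knockout. The groups did not overlap, and the difference of -0.44 (SE 0.16) did not pass (limma, adjusted p = 0.17). Il24, of the Il20 family that acts on keratinocytes, differed by -0.33 (SE 0.21), and Il12a, a subunit of interleukin 12, by 0.30 (SE 0.44). Il12a was highest in labelled knockout replicate 2, at 0.99, with the other labelled knockout arrays at -0.50 and -0.64. Tslp, an epithelial cytokine of allergic inflammation that acts through Crlf2 and Il7r, ranged from -3.55 to -2.83 in wild type and from -3.24 to -2.79 in labelled knockout, a difference of 0.16 (SE 0.23). Its Cy5 signal was 13.9 to 45.5 in wild type and 68.3 to 100 in labelled knockout before normalization.

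Tnf, the cytokine that activates NF-kB, read -0.97, -1.10 and -1.54 in wild type and -1.32, -1.67 and -1.51 in labelled knockout. The groups overlapped, and the difference was -0.30 (SE 0.20, 95% interval -0.76 to 0.16, limma, adjusted p = 0.40). Csf1, the growth factor of macrophages, was among the members with the least difference, at -0.05 (SE 0.17, 95% interval -0.45 to 0.36).

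The other 13 members were not well above background on all 3 arrays of either group: Il6, Il19, Il20, Il22, Il23a, Csf2, Csf3, Cxcl2, Cxcl9, Cxcl10, Cxcl13, Cxcl17 and Nos2. Il6, the best known inducer of the acute phase, had background-subtracted Cy5 signals of -0.90 to 6.49 over the 6 arrays, against Cy3 signals of 987 to 1105. The probe therefore bound labelled RNA in the reference, and the esophageal signal was not well above background on any array. The same held for Csf2, a growth factor of granulocytes and macrophages, with Cy5 signals of 0.85 to 5.48 against Cy3 signals of 75.1 to 119. Cxcl10, an interferon-induced ligand of Cxcr3, had Cy5 signals of 3.44, 53.2 and 56.3 in wild type and 5.44, 24.5 and 11.7 in labelled knockout, and Cy3 signals of 2722 to 3027. It was well above background on 2 wild type and 1 labelled knockout arrays.

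Its relative Cxcl9 was well above background on 2 wild type arrays, at 45.6 and 46.9, and on no labelled knockout array. For Il20 the reference was not above background on any array either, so the probe showed no signal in any sample. Il19, of the same family, had Cy5 signals of 3.61 to 36.0 and was above background on 2 arrays of each group. Il23a, the subunit particular to interleukin 23, stayed at or under 14.8, and Csf3, the granulocyte growth factor, at or under 27.6. Cxcl2, a neutrophil attractant, was above background on 1 array of each group, and Cxcl13, which attracts B cells through Cxcr5, reached 101 in wild type replicate 3 and 64.2 in labelled knockout replicate 2. Il22 and Cxcl17 were also above background on no array in Cy5. In all, 5 members (Il6, Il20, Il22, Csf2 and Cxcl17) were above background on none of the 6 arrays and 23 on all of them.

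**Figure D4:**
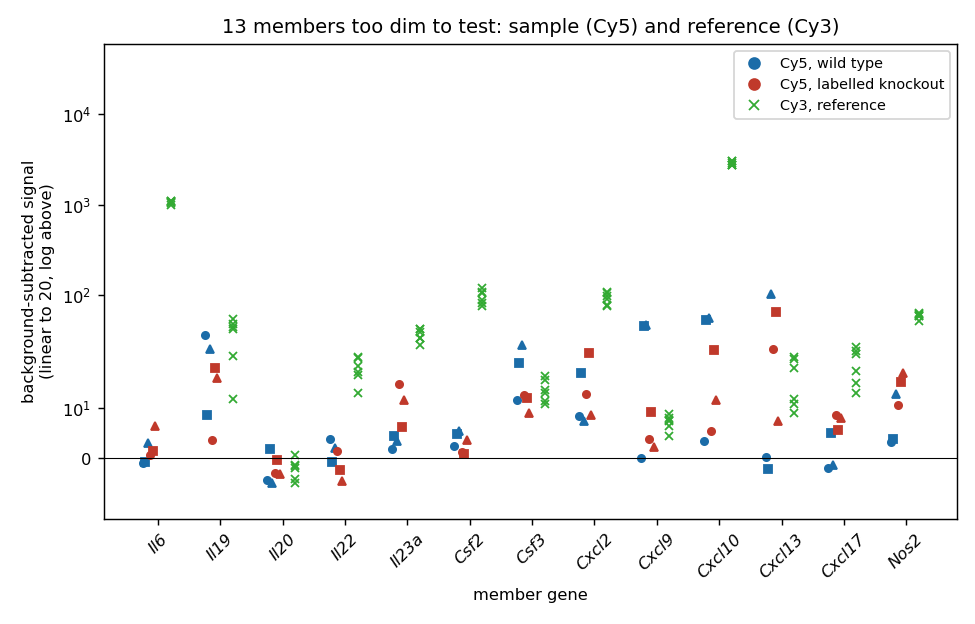
Background-subtracted signal of the 13 members too dim to test, with Cy5 (esophagus) by group and marker shapes for the replicate number, and Cy3 (reference) as crosses; the axis is linear to 20 and logarithmic above. Il6 and Cxcl10 have reference signals of 987 to 1105 and 2722 to 3027 with Cy5 signals of at most 6.49 and 56.3, while Il20 is near 0 in both channels.

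To set the members in their pathway, 4 further lists of receptors, signalling proteins, other ligands, and genes of eicosanoid, nitric oxide and acute phase metabolism were read from the same fit. Among 30 tested receptors of 40 listed, 1 rose and 1 fell, against 2.83% and 2.00% of all tested genes, and the median difference was -0.31. Cxcr6, the receptor of Cxcl16 on T cells and NK cells, read 0.35, 0.15 and 0.34 in wild type and -0.99, -0.92 and -0.87 in labelled knockout. These groups did not overlap, and it fell by 1.21 (SE 0.14, limma, adjusted p = 0.011). Cxcr6 was well above background on 3 wild type and 2 labelled knockout arrays, and so was tested through wild type alone. Il20ra, a receptor chain for Il19, Il20 and Il24 that keratinocytes carry, ranged from -1.55 to -0.85 in wild type and from -0.12 to 1.09 in labelled knockout, and rose by 1.67 (SE 0.33, adjusted p = 0.043). Of the ligands of Il20ra, Il24 did not pass and Il19 and Il20 were too dim to test. Il7r, which Tslp shares, had a difference of -0.97 (SE 0.21) that did not pass (adjusted p = 0.051) and passed with the replicate block (adjusted p = 0.040). Its Cy3 signal, at 2.78 to 5.69, was well above background on 0 arrays, so its ratios rest on a reference at background.

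Of 38 tested signalling genes 3 fell and none rose, against 2.00% and 2.83% of all tested genes. Fos, an AP-1 subunit, read -1.28, -1.04 and -1.76 in wild type and -2.49, -3.28 and -3.78 in labelled knockout, and fell by 1.82 (SE 0.35, limma, adjusted p = 0.038). Socs1, a feedback inhibitor of JAK kinases, fell by 1.04 (SE 0.15, adjusted p = 0.019), and Ripk1, a kinase downstream of the Tnf receptor, by 1.00 (SE 0.18, adjusted p = 0.031). The reference signal of Fos was 17610 to 19997 in wild type and 9743 to 16000 in labelled knockout, and its part in the result was not tested. The NF-kB subunit Rel was not tested. The other NF-kB subunits and the inhibitors of the list did not pass, nor did its STAT genes, and the list's median was -0.12.

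Of 22 tested other ligands, 1 rose and 1 fell, against the same shares. Il11, a cytokine of the Il6 family, read -1.35, -1.20 and -1.39 in wild type and -2.38, -2.59 and -2.63 in labelled knockout, and fell by 1.22 (SE 0.15, limma, adjusted p = 0.012). Il2 rose by 0.71 (SE 0.14, adjusted p = 0.045), but both of its channels moved: Cy5 from 7.70, 11.6 and 17.9 to 142, 121 and 124, and Cy3 from 30.5, 35.8 and 24.2 to 135, 129 and 133. It was well above background on 1 wild type array, the replicate block ended the call (adjusted p = 0.0505), and median centring turned the difference to -0.13. Ccl17, a chemokine that dendritic cells make, ranged from -0.56 to 1.35 in wild type and from -1.93 to -1.36 in labelled knockout, a difference of -2.09 (SE 0.45, adjusted p = 0.052; with the replicate block, adjusted p = 0.018).

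Among 32 tested genes of eicosanoid, nitric oxide and acute phase metabolism, 3 fell and none rose, again against 2.00% and 2.83% of all tested genes. Ptgs1, the constitutive cyclooxygenase, ranged from -0.38 to -0.28 in wild type and from -1.16 to -0.91 in labelled knockout, and fell by 0.70 (SE 0.14, limma, adjusted p = 0.042). Saa2, the near-identical relative of Saa1, read 4.44, 2.87 and 2.68 in wild type and 0.72, 0.07 and 1.33 in labelled knockout, and fell by 2.62 (SE 0.51, adjusted p = 0.041). Orm1, which encodes another acute phase protein, fell by 1.55 (SE 0.29, adjusted p = 0.036). Both cyclooxygenase genes were thus called lower in the main fit, but the Ptgs1 call was lost in 11 alternatives, among them every left-out array. The Cy3 signal of Ptgs1 was 31984 to 34178 in wild type and 18041 to 31228 in labelled knockout, and its part in the result was not tested.

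**Figure D5:**
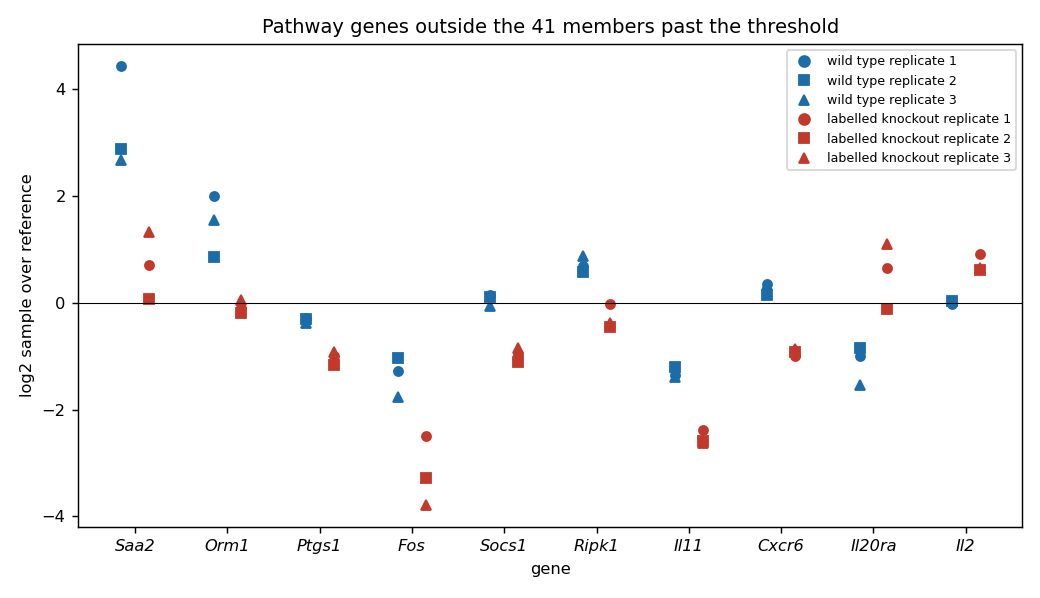
Log2 ratio of sample over reference on each array for the 10 pathway genes outside the 41 members that passed an adjusted p of 0.05, wild type at left and labelled knockout at right of each gene, with marker shapes for the replicate number. The groups do not overlap for any of the 10, and 8 are lower in labelled knockout.

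Of the 30, 38, 22 and 32 tested genes of the 4 lists, 3 in all rose and 16 fell with the replicate block. In that fit 4.97% of all tested genes were called higher and 3.23% lower. The 10 calls made without the block differed in how far they rested on single arrays. Leaving out each of the 6 arrays in turn, the call was lost 2 times for Cxcr6, 3 for Il11, 4 for Socs1 and Fos, 5 for Il20ra, Saa2 and Orm1, and 6 for Ripk1, Il2 and Ptgs1. Because the groups did not overlap for any of these genes, no leave-out could change the direction of a difference.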

How the data were processed

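Each deposited scanner file lists 45018 spots with linear intensity in both channels; per the file headers, Agilent Feature Extraction 10.7.3.1 made them, while the submitters' processing notes name version 9.1. The same files hold the deposited log10 ratio of Cy5 over Cy3. The deposited series matrix holds log2 values that correlated with the scanner ratio at -0.993 to -0.996 with a slope near -1, so they were read as Cy3 over Cy5; their centring is unknown.

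In R 4.3.3 with limma 3.58.1, mean signals were corrected with normexp (offset 50) and normalized by loess within arrays, with control spots at weight 0. Outlier spots, 55 to 164 per array, were left out and spots of a probe averaged. A probe was above background where over 50% of its spots were. lmFit and eBayes ran on 30501 probes, two-sided, with Benjamini-Hochberg adjustment over all of them at 0.05; a gene took its brightest tested probe. An exact permutation test of 3 against 3 cannot go below 0.1. Cy5 was above background for 67.3 to 77.3% of probes, and the 6 arrays limit the precision. Symbols were updated through RefSeq names (26918 probes by accession, 5899 by name, 8357 kept). The fit was checked on simulated data.

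Members and lists were chosen with earlier results of these data known. All members are named, and of the other lists every gene past the threshold and the 3 with the smallest p. Equal replicate numbers share a slide position, and whether they also pair mice is not stated. Deviations from the group means, which are not independent within a group, correlated at 0.17, 0.51 and 0.34 for equal numbers. Different numbers correlated at -0.49 to 0.16. Wild type replicate 1 correlated with labelled knockout replicate 3 at 0.16, nearly as with replicate 1, so a pairing is not settled. The main fit leaves it out, and the replicate block is an alternative. Alternatives were background correction, deposited ratios, normalization, Cy5 alone, filters, trend, array weights, a replicate block, probe means and left-out arrays.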

Additional observations from a re-analysis of the deposited data

How the results depend on the processing

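The main fit called 1 member higher and 1 lower, 2 other pathway genes higher and 8 lower, and 1007 genes in all. With the replicate block, 6 members were lower (Ptgs2, Saa1, Ccl5, Ccl8, Ccl11 and Il15), as were 16 other pathway genes, with 1707 genes in all; the block ended the call on Il2 and otherwise lost none of the named calls. Without background correction, 2 members were lower. The deposited log ratio gave 0 members higher, 4 other genes lower and 571 genes in all, and the series matrix gave 0, 4 and 561. Median centring left 0 members higher, 0 lower, 0 and 0 other pathway genes and 120 genes, and turned Il2 to -0.13. Cy5 alone gave 0 members higher and 7 lower, 8 and 31 other pathway genes, and 6378 genes. No filter on dim probes left 1 other pathway gene higher. Requiring all 6 arrays above background gave 0 members and 1 other pathway gene higher, and 558 genes. A trend in eBayes gave 0 members higher and 2 lower, array weights gave 3 lower, 6 and 20 other pathway genes and 2470 genes, and the mean over probes gave 0 higher. Leaving out each array in turn gave 0 members higher, 0 to 3 lower, 0 to 1 and 0 to 6 other pathway genes, and 34 to 826 genes, fewest without labelled knockout replicate 3. Without replicate 2 in both groups, chosen after seeing the data because these arrays had the most skeletal muscle signal, 0 members were higher and 1 lower, 1 and 3 other pathway genes, and 324 genes. The causes of these shifts were not tested. Dim Cy5 signal limits the 5 tested members not above background on every array: Cxcl15, Ccl4, Ccl28, Cxcl5 and Il12a.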
